A study of Mus musculus with 12 samples.

Results

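The acid-base genes of the mouse kidney cortex described here are the subunits of the vacuolar proton pump, the carbonic anhydrases and the Slc4 and Slc26 anion transporters, together with Foxi1 and Insrr. They were chosen by symbol: every row that starts with Atp6v, Atp6ap, Slc4a or Slc26a, every Car gene followed by a number, and those 2 added genes, without pseudogene rows. This gave 65 of the 46095 rows of the count table, of which 54 had enough counts to be tested among 17530 genes. RNA-seq counts came from 12 libraries of renal cortex of C57BL/6 mice aged 12 weeks. The 4 DN+NaB libraries came from mice with diabetic nephropathy (DN, the kidney disease of diabetes) that received sodium butyrate, a short-chain fatty acid that gut bacteria make. The 4 DN libraries came from mice with diabetic nephropathy alone, and the 4 NC libraries from normal control mice. How the mice became diabetic, and how much butyrate they had, by which route and for how long, is not stated in the labels. Since libraries are not linked to animals there, p-values measure the spread between these libraries, which may be technical in part.

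Library totals ran from 58394975 to 70674015 counts. The extraction protocol names prefrontal cortex where the tissue label names renal cortex, and the counts were those of kidney: the endocytic receptor gene Lrp2 had 547305 to 852758 counts per library and Umod, of the thick ascending limb, 165229 to 481314, whereas of 5 brain markers the synaptic genes Snap25 and Slc17a7 had 0 and 0 to 2. The other brain markers were Gfap, with 2 to 41 counts, Rbfox3, with 2 to 28, and the myelin gene Mbp, with 942 to 1501, and none of these was called in any comparison. DN replicate 4 stood apart on the second principal component of the most variable genes, at -39.7 against -10.4 to 23.4 for the other 11 libraries. It also held the highest sum of 8 red cell markers, 248 CPM, where the sums were 4.41 to 135 CPM in DN+NaB, 6.95 to 11.2 CPM in the other DN libraries and 26.6 to 94.1 CPM in NC. CPM, the count scaled to the size of the library with TMM factors, is the unit of every level given here. Sets of 4 values follow replicates 1 to 4.

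The vacuolar proton pump, or V-ATPase, hydrolyses ATP in its cytosolic V1 part and moves protons through its membrane V0 part. It acidifies endosomes and lysosomes in all cells, and in the kidney it also secretes acid into the urine from the proximal tubule and from intercalated cells of the collecting duct. Carbonic anhydrases turn CO2 and water into bicarbonate and protons, and Slc4 and Slc26 proteins carry bicarbonate and other anions across membranes. Type A intercalated cells secrete acid and pass bicarbonate to the blood through Slc4a1, while type B cells pass bicarbonate to the urine through Slc26a4, known as pendrin. In whole cortex, fewer cells of a type and less RNA per cell cannot be told apart.

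Between DN and NC cortex, 10 of the 54 tested acid-base genes were called, or 18.5%, where 8.23% of all tested genes were. Called means a Benjamini-Hochberg adjusted p under 0.05 over all 17530 genes in edgeR's quasi-likelihood test, the source of every adjusted p given for a gene. The 5 that rose were the pump subunits Atp6v1b2, Atp6v0a4 and Atp6v1g1 and the carbonic anhydrases Car5b and Car9, beside 3.82% of all genes. The 5 that fell were Insrr, Slc26a4, Slc4a9, Atp6v1b1 and Atp6v0c, beside 4.42% of all genes. The median log2 fold change was -0.04 over the 54 genes and 0.01 over all genes. Groups did not overlap for 10 of the 54 genes, or 18.5% where all genes had 13.3%; 7 were lower in DN, beside 7.49% of all genes, and 3 higher, beside 5.86%. Without DN replicate 4 the counts were 6 higher and 4 lower.

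Between DN+NaB and DN cortex, 0 of the 54 genes were called by edgeR, where 0.0228% of all tested genes were. At an unadjusted p under 0.05 there were 9 genes, 16.7% of the set, where all genes had 9.85%. DESeq2 called 1 gene of the set, Foxi1, where it called 80 of all genes higher and 174 lower. The groups did not overlap for 3 genes, Foxi1, Insrr and Slc26a4, all higher in DN+NaB; this is 5.56% of the set, where 4.56% of all genes did not overlap and 2.13% were higher without overlap. The median log2 fold change was 0.11 over the 54 genes and -0.02 over all genes.

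Between DN+NaB and NC cortex, 10 of the 54 genes were called, or 18.5%, where 15.6% of all tested genes were, so the share in the set was close to the background. The 7 that rose were Atp6v1b2, Atp6v1g1, Atp6v0a4, Atp6v0e2, Car5b, Car12 and Car2, beside 6.62% of all genes, and the 3 that fell were Atp6v0c, Atp6v1a and Slc26a2, beside 8.94%. Groups did not overlap for 19 of the 54 genes, 35.2% where all genes had 27.9%. The 3 comparisons share libraries by pairs, so a gene's values in them are not independent of each other.

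**Figure D1:**
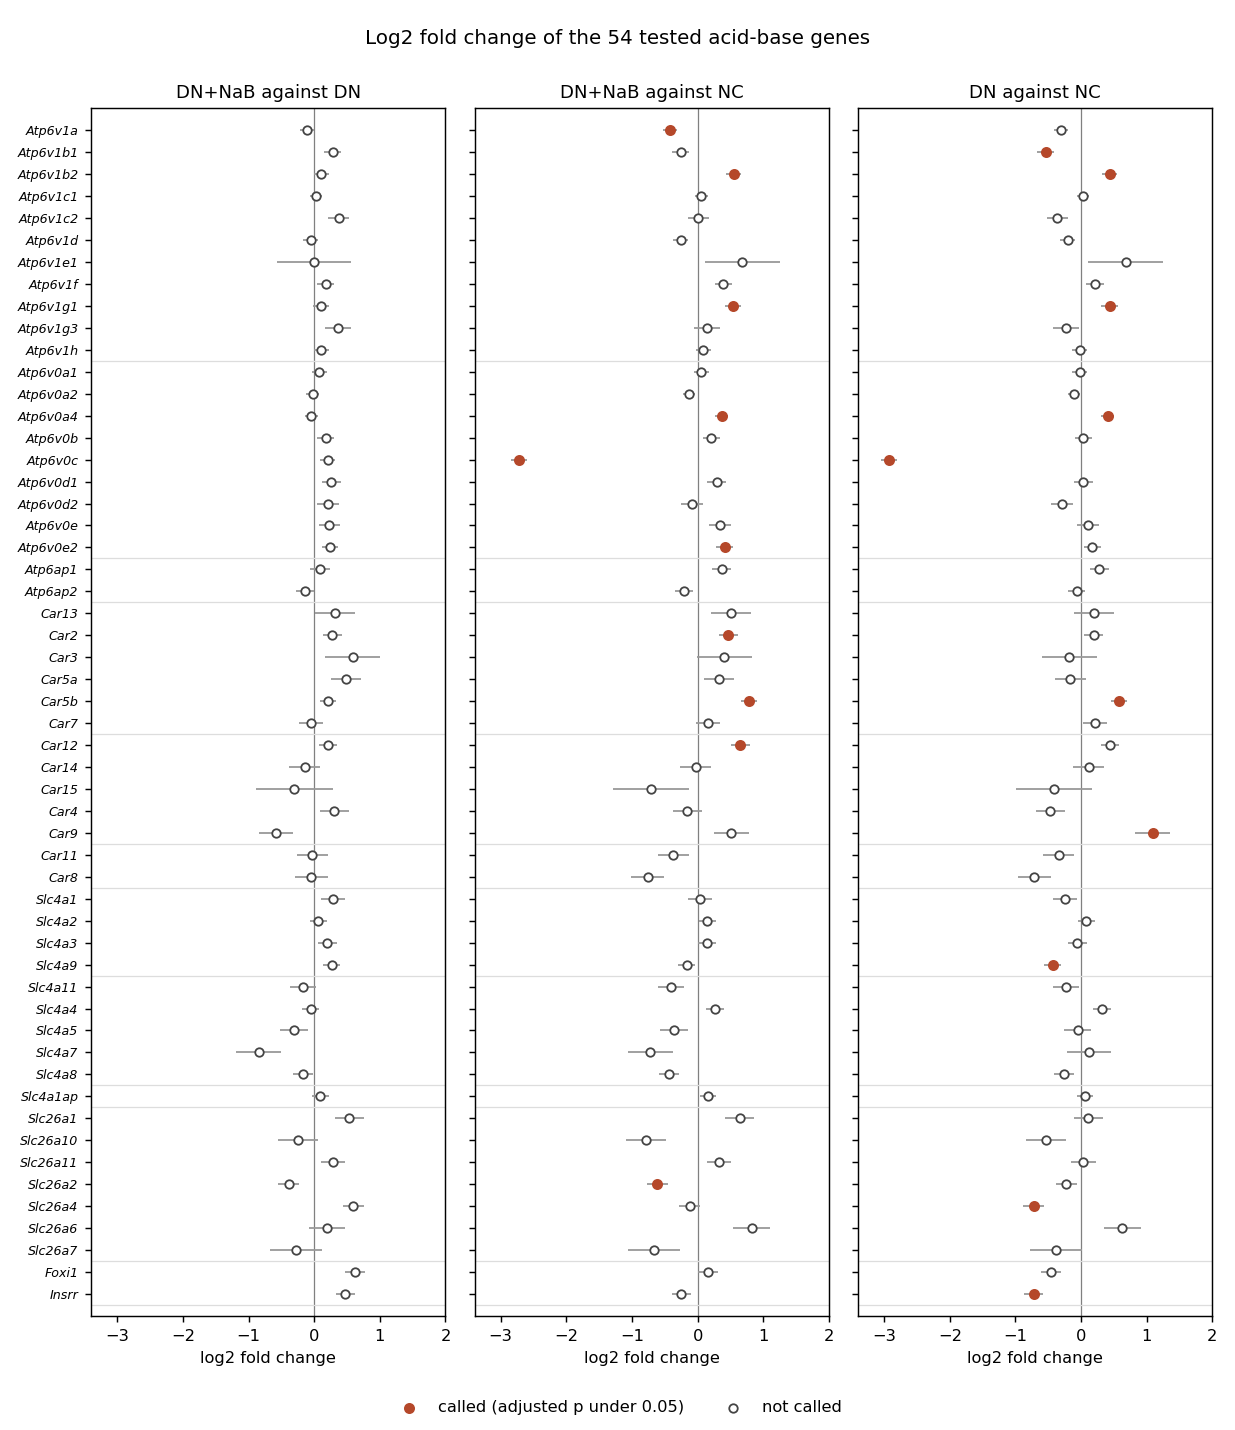
Log2 fold change (x axis, tested group over the other) of each of the 54 tested acid-base genes (y axis, ordered by role with V1, V0 and accessory pump subunits at the top) in the 3 comparisons. Points are edgeR estimates, bars 1 standard error, and filled points are called genes: none in DN+NaB against DN, 10 in each comparison with NC, with Atp6v0c far to the left in both at -2.72 and -2.92.

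Among the 13 members of the V1 part, 11 were tested. In DN against NC 2 rose, beside 3.82% of all genes, 1 fell, beside 4.42%, and 8 were not called. Atp6v1b2, the B2 form of the ATP-binding B subunit, which most cells use, had 598, 662, 623 and 631 CPM in DN+NaB and 541, 593, 712 and 491 CPM in DN, against 417, 439, 444 and 421 CPM in NC. Every DN+NaB and DN library lay above every NC library. The log2 fold change was 0.55 ± 0.11 in DN+NaB against NC (adjusted p = 0.00507), and this call held in all 21 alternative fits. In DN against NC it was 0.44 ± 0.11 (adjusted p = 0.0273), and the call was lost without NC replicate 1 (0.41, adjusted p = 0.0769), NC replicate 2 (0.44, 0.0576), NC replicate 3 (0.45, 0.0537), DN replicate 2 (0.43, 0.0639) or DN replicate 3 (0.33, 0.0607). It was also lost when only the 2 groups were fitted (0.45, 0.078).

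Atp6v1b1, the B1 form of the same subunit, which marks intercalated cells, moved the other way. Its levels were 108, 98.6, 79.6 and 87.9 CPM in DN+NaB and 72.7, 84.0, 87.7 and 63.1 CPM in DN, against 128, 106, 113 and 101 CPM in NC. All DN libraries were below all NC libraries, while DN+NaB libraries overlapped both. The log2 fold change was -0.54 ± 0.13, adjusted p = 0.0197 in DN against NC, 0.28 ± 0.13, adjusted p = 0.499 in DN+NaB against DN and -0.26 ± 0.13, adjusted p = 0.203 in DN+NaB against NC. The call in DN was lost without NC replicate 1 (-0.48, adjusted p = 0.0535) or DN replicate 1 (-0.51, adjusted p = 0.053).

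Levels of the B forms were set against each other per kilobase of exon, with the exons of their basic protein-coding transcripts in GENCODE M21. Another set of exons would scale a gene's value by the same factor in every library, so it bears on the order of genes and not on the order of groups. Per kilobase, the ratio of Atp6v1b1 to Atp6v1b2 was 0.124 ± 0.0187 in DN+NaB and 0.110 ± 0.00657 in DN, against 0.216 ± 0.0263 in NC (mean ± SD, n = 4 each). Its 4 values were 0.150, 0.124, 0.106 and 0.116 in DN+NaB and 0.112, 0.118, 0.103 and 0.107 in DN, against 0.255, 0.200, 0.211 and 0.199 in NC. Every library of mice with diabetic nephropathy, with or without butyrate, thus had a lower ratio than every NC library. Reads from a mixture of cell types give 1 ratio for the whole cortex, and the ratio itself was not put to a test.

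Atp6v1a encodes the catalytic A subunit. It had 371, 346, 372 and 332 CPM in DN+NaB and 408, 397, 326 and 404 CPM in DN, against 478, 420.2, 474 and 528 CPM in NC. DN+NaB and DN libraries were all below the NC libraries, and DN replicate 3, at 326 CPM, was the lowest of all. It fell in DN+NaB against NC (-0.42 ± 0.11, adjusted p = 0.0169), a call lost without DN+NaB replicate 2 (-0.40, adjusted p = 0.0534) or DN+NaB replicate 4 (-0.39, adjusted p = 0.0592). In DN against NC its log2 fold change was -0.31 ± 0.11, adjusted p = 0.0988.

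Atp6v1g1 encodes the common form of the G subunit of the pump's outer stalk. Its levels were 76.3, 72.9, 80.6 and 87.2 CPM in DN+NaB and 79.3, 74.4, 81.8 and 58.8 CPM in DN, against 60.9, 59.5, 51.0 and 46.3 CPM in NC. DN+NaB lay above NC without overlap, while DN replicate 4 fell within the NC range. It rose in DN+NaB against NC (0.54 ± 0.12, adjusted p = 0.00931), a call that held in all 21 alternatives. The rise in DN against NC (0.44 ± 0.12, adjusted p = 0.0461) held among the 12 fits that leave out 1 library only without DN replicate 4; without any of the other 11 libraries the value was 0.35 to 0.48 and the adjusted p 0.0536 to 0.115. It was also lost with library size scaling alone, with no filter on low counts, with a replicate block and when only the 2 groups were fitted (0.33 to 0.44, adjusted p = 0.0572 to 0.0997). Part of its transcript, 19.2% of 50-base words, also occurs in the pseudogene Gm13453, which had 0 to 6 counts.

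The other V1 subunits were not called. Atp6v1c2, the kidney form of the C subunit, had the smallest p of the V1 part in DN+NaB against DN, at 0.37 ± 0.16, adjusted p = 0.473, with 25.5 to 30.9 CPM in DN+NaB and 16.2 to 25.9 CPM in DN, against 21.8 to 33.6 CPM in NC. The common forms Atp6v1c1, Atp6v1d, Atp6v1f and Atp6v1h had log2 fold changes of -0.20 to 0.21 in DN against NC. Atp6v1e1, the common E subunit, stood at only 3.99 to 6.90 CPM in DN+NaB and 2.71 to 12.7 CPM in DN, against 1.65 to 7.58 CPM in NC, with 1 library far above the rest in DN and 1 in NC. Per kilobase of exon it stood at 4.17 CPM in DN+NaB and 4.17 CPM in DN, against 2.60 CPM in NC, where Atp6v1h, the next lowest of the common V1 subunits in every group, had 23.7 CPM in DN+NaB and 21.99 CPM in DN, against 22.3 CPM in NC. Atp6v1g3, a G form found in kidney, had 3.44 to 5.63 CPM in DN+NaB and 2.80 to 3.78 CPM in DN, against 2.98 to 4.24 CPM in NC.

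**Figure D2:**
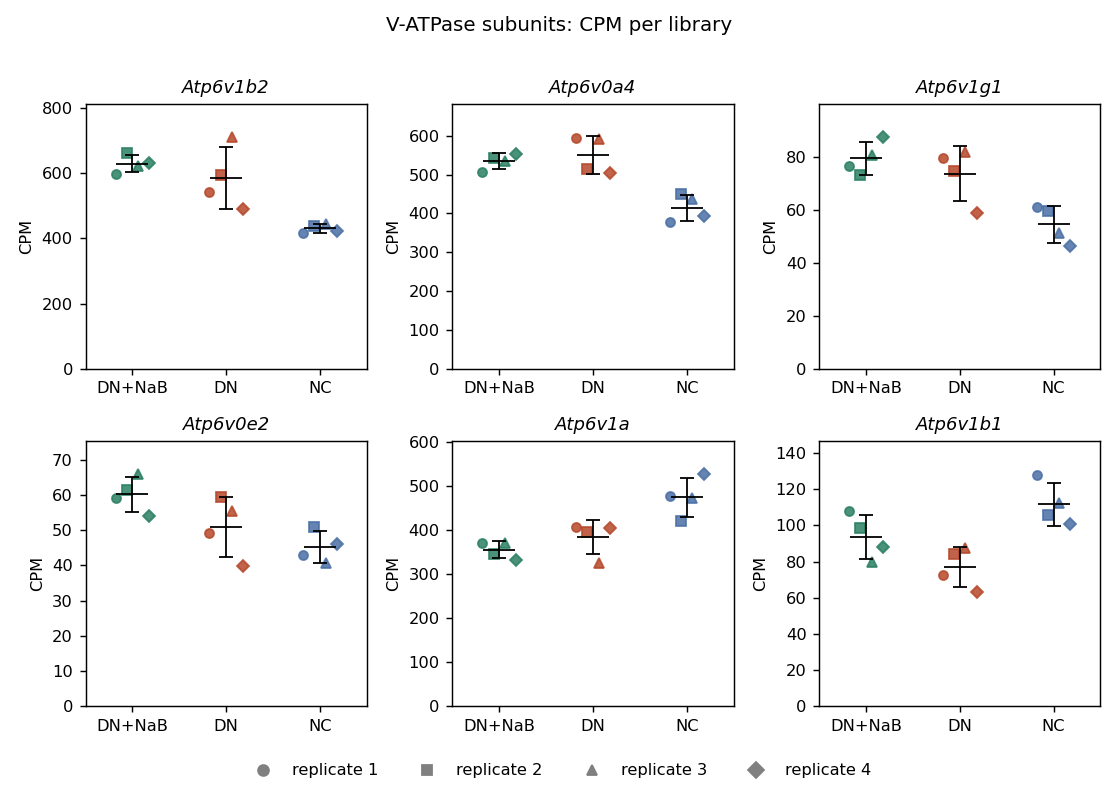
Levels of 6 pump subunits in CPM (y axis, from 0) in each library of DN+NaB, DN and NC (x axis); points are libraries, marked by replicate, with the mean and 1 SD as lines (n = 4). The top row and Atp6v0e2 show genes that rose in at least 1 comparison with NC, and Atp6v1a and Atp6v1b1 genes that fell, with Atp6v1b1 at 63.1 to 87.7 CPM in DN against 101 to 128 CPM in NC.

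All 9 members of the membrane V0 part were tested. In DN against NC 1 rose, beside 3.82% of all genes, 1 fell, beside 4.42%, and 7 were not called. Atp6v0a4, the a4 form of the large membrane subunit, which sits in the acid-secreting pumps of the kidney, had 506, 543, 535 and 553 CPM in DN+NaB and 594, 514, 591 and 504 CPM in DN, against 379, 450.4, 436 and 394 CPM in NC. All DN+NaB and DN libraries lay above all NC libraries. It rose in DN against NC (0.41 ± 0.10, adjusted p = 0.0214) and in DN+NaB against NC (0.37 ± 0.10, adjusted p = 0.0245). The call in DN was lost without NC replicate 1 (0.36, adjusted p = 0.0754) or DN replicate 1 (0.37, 0.0576) and when only the 2 groups were fitted (0.42, 0.0687). The call in DN+NaB was lost without NC replicate 1 (0.32, adjusted p = 0.0745), NC replicate 4 (0.33, 0.0527), DN+NaB replicate 2 (0.36, 0.0655), DN+NaB replicate 3 (0.37, 0.0589) or DN+NaB replicate 4 (0.35, 0.0691), and with no filter on low counts (0.35, 0.0538). Its transcripts share 4.23% of their 50-base words with D630045J12Rik on the same strand, so reads there could belong to either.

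Of the other a forms, Atp6v0a1 and Atp6v0a2 are made in many tissues, and neither was called, with log2 fold changes of -0.02 ± 0.11 and -0.11 ± 0.09 in DN against NC. Per kilobase of exon, Atp6v0a4 stood at 4.76 ± 0.533 times the level of Atp6v0a1 in DN+NaB and 5.20 ± 0.810 times in DN, against 3.80 ± 0.233 times in NC (mean ± SD, n = 4 each). The lowest ratio in DN+NaB was 4.25 and in DN 4.29, against a highest ratio of 4.09 in NC. The other ratios of a kidney form to its common partner overlapped between the groups. That of Atp6v1c2 to Atp6v1c1 was 0.503 to 0.558 in DN+NaB and 0.315 to 0.538 in DN, against 0.436 to 0.663 in NC. Atp6v0d2 stood at 0.0430 to 0.0659 times Atp6v0d1 in DN+NaB and 0.0297 to 0.0782 times in DN, against 0.0593 to 0.0927 times in NC. The ratio of Atp6v1g3 to Atp6v1g1 was 0.0257 to 0.0388 in DN+NaB and 0.0206 to 0.0307 in DN, against 0.0295 to 0.0551 in NC. B1 and a4 were thus the only forms of the 5 compared whose ratio in mice with diabetic nephropathy did not overlap NC.

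Atp6v0e2, a form of the small e subunit, had 59.2, 61.4, 65.9 and 53.9 CPM in DN+NaB and 49.2, 59.2, 55.3 and 39.7 CPM in DN, against 42.9, 50.9, 40.7 and 46.1 CPM in NC. DN+NaB and NC did not overlap, and DN spanned both. It rose in DN+NaB against NC (0.41 ± 0.13, adjusted p = 0.0417), a call lost without NC replicates 1, 3 or 4, DN replicate 1 or DN+NaB replicates 1, 2 or 3 (0.36 to 0.42, adjusted p = 0.0523 to 0.114), with library size scaling alone (0.30, 0.087) and with no filter on low counts (0.40, 0.0594). It also had the smallest p of the V0 part in DN+NaB against DN (0.24 ± 0.13, adjusted p = 0.576). The abundant subunits Atp6v0b and Atp6v0d1 had 0.03 ± 0.13 and 0.03 ± 0.15 in DN against NC, and Atp6v0d2, the d form of osteoclasts and intercalated cells, -0.29 ± 0.17; none was called in any comparison. Atp6v0e was not called either.

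Atp6v0c encodes the c subunit, the proteolipid whose ring carries the protons. It had 9.19, 8.51, 8.11 and 8.61 CPM in DN+NaB and 6.80, 7.53, 8.52 and 6.96 CPM in DN, against 53.5, 61.5, 62.2 and 49.0 CPM in NC. The fall was -2.92 ± 0.12 in DN against NC (adjusted p = 5.10e-09) and -2.72 ± 0.12 in DN+NaB against NC (adjusted p = 1.23e-08), the largest change of any member. Its pseudogene row Atp6v0c-ps2, which is not counted among the 65, did the opposite, with 63.0, 60.4, 58.2 and 57.6 CPM in DN+NaB and 41.5, 51.5, 63.1 and 43.4 CPM in DN, against 1.19, 1.56, 1.52 and 0.541 CPM in NC. The log2 fold change of the copy was 5.37 ± 0.28, adjusted p = 7.60e-08 in DN against NC and 5.64 ± 0.28, adjusted p = 5.61e-08 in DN+NaB against NC.

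Gene and copy differ by 1 base. In the GENCODE M21 transcripts (GRCm38), Atp6v0c lies on chromosome 17 and Atp6v0c-ps2 on chromosome 6. Over the 465 bases of the copy, 464 are identical to the Atp6v0c transcript (99.78%), and the only difference is T111C, with the Atp6v0c base first and positions counted from 1 at the copy's 5′ end. Transcript bases 178 to 297 of Atp6v0c, which begin at its start codon, are printed with bases 1 to 120 of the copy, and the differing base is in capitals. They are shown because, within the copy's length, this base alone tells the gene from the copy.
Atp6v0c: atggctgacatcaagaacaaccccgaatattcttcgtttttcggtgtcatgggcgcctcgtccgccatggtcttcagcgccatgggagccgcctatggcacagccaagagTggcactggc
Atp6v0c-ps2: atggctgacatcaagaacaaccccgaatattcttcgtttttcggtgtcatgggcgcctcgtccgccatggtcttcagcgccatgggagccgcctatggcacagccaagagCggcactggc
Of the 50-base words of all annotated Atp6v0c transcripts, whose exons span 3384 bases, 10.7% also occur in the copy. The exons of its basic protein-coding transcripts span only 1258 bases, beside the 465 bases of the copy. The shared part of those transcripts alone was not computed. Of the words of the copy, 88.0% occur in Atp6v0c, and 20.4% in the second pseudogene Atp6v0c-ps1, which had 0 counts in every library. How reads with several matches were counted is not given in the sources used here.

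Added together, the gene and its copy stood at 68.4 ± 2.83 CPM in DN+NaB and 57.3 ± 10.6 CPM in DN, against 57.7 ± 6.85 CPM in NC (mean ± SD, n = 4 each). The copy took 87.0% to 87.8% of this sum in DN+NaB and 85.9% to 88.1% in DN, against 1.09% to 2.48% in NC. With copies added to their parent rows before the fit, the log2 fold change of Atp6v0c was -0.02 in DN against NC (adjusted p = 0.962) and 0.24 in DN+NaB against NC (adjusted p = 0.2), so neither call held. The summed level in DN overlapped that in NC, and the lowest DN+NaB sum, 66.2 CPM, lay above the highest NC sum, 63.7 CPM. A lower level of Atp6v0c with a higher level of its copy cannot be told apart here from reads of 1 gene counted in the row of the other. The base that the mice carry at the differing position was not tested.

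**Figure D3:**
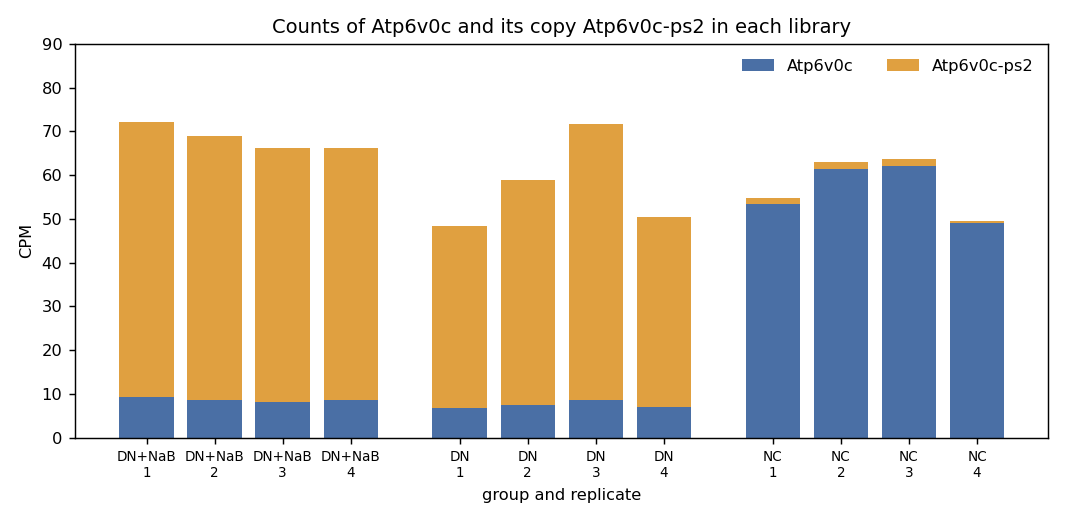
Stacked bars of CPM (y axis) counted for Atp6v0c and its copy Atp6v0c-ps2 in each of the 12 libraries (x axis, group and replicate). The copy makes up 85.9% to 88.1% of the bar in all DN+NaB and DN libraries and at most 2.48% in NC libraries, while the heights of the DN and NC bars overlap.

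The accessory subunits were not called. Atp6ap1, which helps assemble the pump, had 314, 419.7, 366 and 389.5 CPM in DN+NaB and 346, 385, 354 and 315 CPM in DN, against 212, 338, 338 and 267 CPM in NC, with overlap between all groups and a log2 fold change of 0.37 ± 0.15, adjusted p = 0.11 in DN+NaB against NC and 0.28 ± 0.15, adjusted p = 0.298 in DN against NC. Atp6ap2, known as the prorenin receptor, had 33.8 to 41.1 CPM in DN+NaB and 35.7 to 43.8 CPM in DN, against 35.5 to 55.5 CPM in NC and -0.14 ± 0.13, adjusted p = 0.762 in DN+NaB against DN.

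Among genes of intercalated cells, Insrr and Slc26a4 were the members with the most stable falls in DN. Insrr, a receptor that senses alkaline fluid outside the cell, had 47.0, 49.4, 42.7 and 53.4 CPM in DN+NaB and 39.0, 39.4, 34.8 and 25.3 CPM in DN, against 63.6, 60.6, 59.0 and 45.4 CPM in NC. All DN libraries lay below all NC libraries and below all DN+NaB libraries, and DN replicate 4 was the lowest. Insrr fell in DN against NC (-0.72 ± 0.15, adjusted p = 0.00754), a call kept in all 21 alternatives; without DN replicate 4 it was -0.62 (adjusted p = 0.00743). In DN+NaB against DN its log2 fold change was 0.47 ± 0.15, adjusted p = 0.288, and in DN+NaB against NC -0.25 ± 0.15, adjusted p = 0.283.

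Slc26a4, the chloride-bicarbonate exchanger pendrin on the urine side of type B cells, had 59.4, 53.0, 50.2 and 65.5 CPM in DN+NaB and 48.1, 40.6, 35.5 and 26.5 CPM in DN, against 62.3, 63.2, 69.0 and 53.3 CPM in NC. As for Insrr, the DN libraries stood below both other groups without overlap, with DN replicate 4 the lowest at 26.5 CPM. Slc26a4 fell in DN against NC (-0.72 ± 0.16, adjusted p = 0.0124), also kept in all 21 alternatives and at -0.60 (adjusted p = 0.013) without DN replicate 4. The difference of DN+NaB from DN was 0.60 ± 0.16, adjusted p = 0.196, and that from NC -0.12 ± 0.16, adjusted p = 0.653.

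Foxi1, the forkhead transcription factor that intercalated cells need to form, had 44.7, 39.2, 36.0 and 50.9 CPM in DN+NaB and 29.0, 28.6, 26.5 and 27.0 CPM in DN, against 40.5, 46.3, 39.0 and 27.0 CPM in NC. The DN libraries, within 26.5 to 29.0 CPM, were all below the DN+NaB libraries, but NC replicate 4 lay among them. Its log2 fold change was 0.62 ± 0.15, adjusted p = 0.167 in DN+NaB against DN by edgeR; DESeq2 gave 0.62 with an adjusted p of 0.0318. In DN against NC it was -0.46 ± 0.15, adjusted p = 0.0843, called without NC replicate 4 (-0.60, adjusted p = 0.0117) and with library size scaling alone (-0.55, adjusted p = 0.0355). In DN+NaB against NC it was 0.16 ± 0.15, adjusted p = 0.516.

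Slc4a9, an anion exchanger on the blood side of type B cells, had 58.8, 53.5, 45.1 and 53.9 CPM in DN+NaB and 51.5, 39.4, 47.6 and 37.2 CPM in DN, against 63.5, 63.8, 58.2 and 51.8 CPM in NC. All DN libraries were below all NC libraries, by a small margin of 51.5 CPM for the highest DN library against 51.8 CPM for the lowest NC library. The fall in DN against NC (-0.43 ± 0.13, adjusted p = 0.0491) was the least stable of the 10 calls after Atp6v1g1. It was lost without any library but NC replicate 4 or DN replicate 1 (-0.47 to -0.38, adjusted p = 0.0517 to 0.134), without robust estimation (-0.43, 0.0503) and when only the 2 groups were fitted (-0.43, 0.102). In DN+NaB against DN it was 0.27 ± 0.13, adjusted p = 0.517.

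Slc4a1, the exchanger of the blood side of type A cells and also band 3 of red cells, was not called. It had 102, 87.3, 68.5 and 83.4 CPM in DN+NaB and 64.4, 81.8, 83.6 and 49.8 CPM in DN, against 93.5, 93.9, 85.3 and 59.4 CPM in NC, and all groups overlapped. Its log2 fold change was -0.25 ± 0.18, adjusted p = 0.482 in DN against NC, 0.29 ± 0.18, adjusted p = 0.643 in DN+NaB against DN and 0.04 ± 0.18, adjusted p = 0.914 in DN+NaB against NC. DN replicate 4, which had the highest red cell marker sum, had the lowest Slc4a1, 49.8 CPM. The part of red cells in the level of Slc4a1 was not tested. The ratio of Slc26a4 to Slc4a1, type B over type A, was per kilobase 0.863 to 1.16 in DN+NaB and 0.627 to 1.10 in DN, against 0.984 to 1.33 in NC, so it overlapped between all groups.

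**Figure D4:**
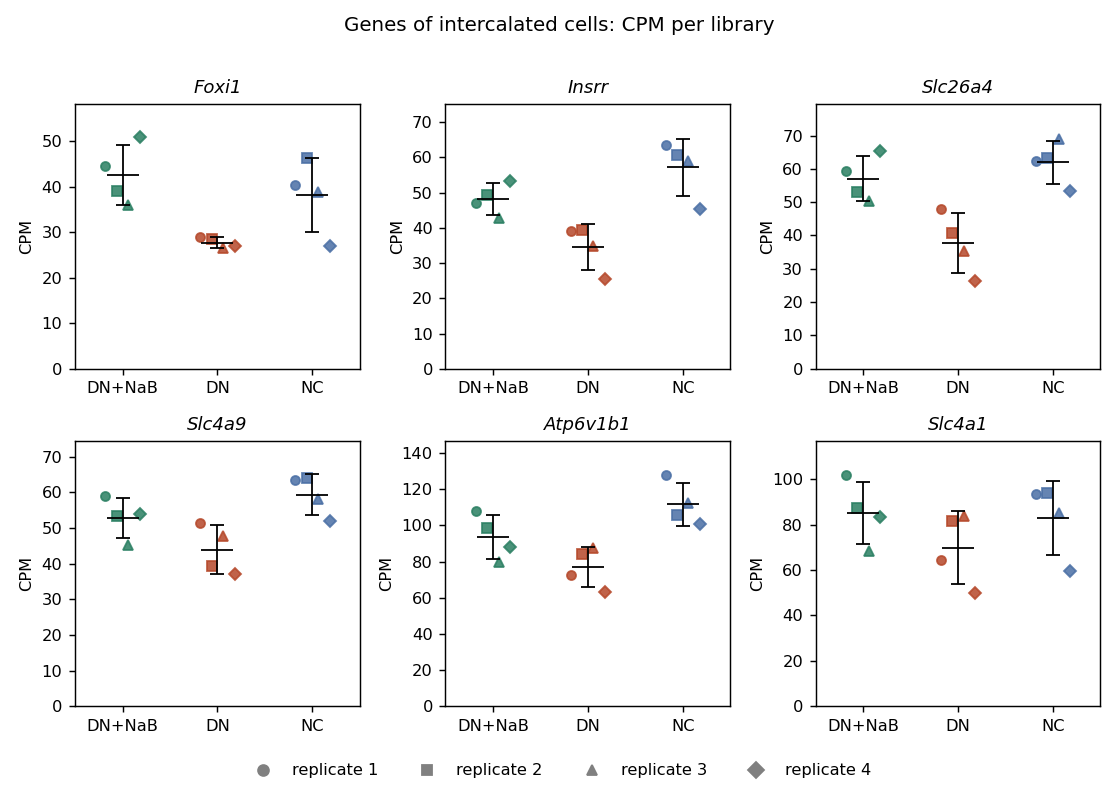
Levels of 6 genes of intercalated cells in CPM (y axis, from 0) in each library of DN+NaB, DN and NC (x axis); points are libraries, marked by replicate, with the mean and 1 SD as lines (n = 4). For Foxi1, Insrr and Slc26a4 every DN library is below every DN+NaB library, and for Insrr, Slc26a4, Slc4a9 and Atp6v1b1 every DN library is below every NC library.

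Most other markers of intercalated cells were not called. Of 12 such genes outside the acid-base set, 0 rose, 2 fell and 10 were not called in DN against NC. In DN+NaB against DN 0 were called, and 3 fell in DN+NaB against NC. Of all genes, 4.42% fell in DN and 8.94% in DN+NaB, each against NC. The median log2 fold change was -0.25 in DN against NC, -0.09 in DN+NaB against DN and -0.32 in DN+NaB against NC. Aqp6, a water and anion channel of intracellular vesicles in type A cells, fell by 0.55 ± 0.16 in DN against NC (adjusted p = 0.0487) and by 0.61 ± 0.16 in DN+NaB against NC (adjusted p = 0.0201). Both diseased groups overlapped NC for Aqp6. NC replicate 4 had 82.0 CPM and the other NC libraries 134 to 142 CPM, beside 64.7 to 92.3 CPM in DN+NaB and 80.3 to 92.3 CPM in DN. Oxgr1, the oxoglutarate receptor of type B cells, had 13.5, 14.6, 12.6 and 15.1 CPM in DN+NaB and 20.3, 13.3, 14.3 and 18.1 CPM in DN, against 29.9, 25.8, 29.6 and 32.8 CPM in NC and fell in both diseased groups (-1.08 ± 0.14, adjusted p = 2.24e-04 in DN+NaB and -0.84 ± 0.14, adjusted p = 0.00218 in DN). Kit, a receptor tyrosine kinase, fell in DN+NaB against NC alone (-0.61 ± 0.17, adjusted p = 0.0284), and the difference between comparisons was not tested. The summed level of the 12 genes was 407 to 509 CPM in DN+NaB and 454 to 528 CPM in DN, against 485 to 638 CPM in NC. The median of this sum was 458.7 CPM in DN+NaB and 481.9 CPM in DN. Adgrf5, 1 of the 12, holds a large part of the sum. It had 145.8, 120.8, 132.9 and 120.7 CPM in DN+NaB and 149.3, 144.7, 143.9 and 257.9 CPM in DN. The order of DN+NaB and DN in the sum thus leans on this gene and on DN replicate 4, and the sum without Adgrf5 is not given.

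Some markers of other tubule segments were called as well. Of all genes, 3.82% rose and 4.42% fell in DN against NC. In DN+NaB against NC 6.62% rose and 8.94% fell. The summed level of 7 thick ascending limb markers was 5444 to 6975 CPM in DN+NaB and 5361 to 7432 CPM in DN, against 7776 to 13270 CPM in NC, with 2 of 7 called lower in DN and 4 of 7 lower, 1 higher in DN+NaB. Of 8 principal cell markers none was called, with sums of 643 to 936 CPM in DN+NaB and 675 to 907 CPM in DN, against 524 to 1093 CPM in NC. Of 10 proximal tubule markers 1 rose in DN and 2 rose in DN+NaB, each against NC. Their sums were 33020 to 43720 CPM in DN+NaB and 24370 to 39610 CPM in DN, against 27760 to 32470 CPM in NC. DN replicates 1 and 4 had the lowest sums in DN, 29360 and 24370 CPM. Of 5 distal convoluted tubule markers 1 rose in DN and 3 rose in DN+NaB, each against NC. These summed to 2315 to 2614 CPM in DN+NaB and 1661 to 2443 CPM in DN, against 1459 to 2083 CPM in NC. In both lists DN+NaB lay above NC without overlap, and DN overlapped both. The part of these shifts in the changes of the acid-base genes was not tested.

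The promoter of Atp6v1b1 holds a forkhead core motif, shown because Foxi1 is a forkhead factor of the cells that use this pump gene. Promoter sequences, from 250 bases before to 50 after a gene's start, were taken from RefSeq (GRCm38.p6), which held 57 entries for 46 of the 65 members. The letters TGTTTA on either strand occur in 13.4% of all 32851 promoters and in 5 of the 57, those of Atp6v1b1, Car12, Car5a, Slc26a1 and Slc4a10. The Atp6v1b1 promoter (chr6:83742767-83743066, plus strand) is printed with the motif in capitals.
Atp6v1b1 promoter: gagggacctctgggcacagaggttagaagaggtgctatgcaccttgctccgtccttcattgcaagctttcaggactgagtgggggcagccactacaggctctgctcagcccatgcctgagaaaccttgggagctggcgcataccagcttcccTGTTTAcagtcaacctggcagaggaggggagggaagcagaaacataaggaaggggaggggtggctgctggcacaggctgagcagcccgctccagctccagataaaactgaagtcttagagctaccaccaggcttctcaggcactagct
The match is a description of the letters, not of binding. The table's Slc26a4 promoter had no match, and none was given for Insrr or Slc4a9. CACGTG, the E-box inside the element known from lysosomal genes, occurs in 7.15% of all promoters and in 6 of the 57, those of Atp6v0b, Atp6v0d1, Atp6v0e, Atp6v1a, Car6 and Slc26a1; of these Atp6v1a alone was called in any comparison.

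Of the 11 Slc26 members, 7 were tested, and beside Slc26a4 only Slc26a2 was called in any comparison. Slc26a2, a sulfate transporter, had 10.2, 11.1, 13.96 and 9.40 CPM in DN+NaB and 15.8, 14.7, 12.5 and 15.5 CPM in DN, against 17.6, 13.7, 15.9 and 21.0 CPM in NC. It fell in DN+NaB against NC (-0.61 ± 0.16, adjusted p = 0.0187), although DN+NaB replicate 3 at 13.96 CPM lay just above NC replicate 2 at 13.7 CPM. The call was lost without NC replicate 1 (-0.61, adjusted p = 0.0528), NC replicate 4 (-0.51, 0.0575), DN+NaB replicate 1 (-0.57, 0.051), DN+NaB replicate 2 (-0.61, 0.0502) or DN+NaB replicate 4 (-0.54, 0.0649).

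Slc26a1, a sulfate and oxalate exchanger on the blood side of the proximal tubule, was the most abundant Slc26 member. Its levels were 387, 404, 436 and 372 CPM in DN+NaB and 255, 305, 404 and 142 CPM in DN, against 246, 271, 265 and 243 CPM in NC. All DN+NaB libraries were above all NC libraries, and DN ranged from 142 CPM in replicate 4 to 404 CPM in replicate 3. It was not called, at 0.64 ± 0.22, adjusted p = 0.0676 in DN+NaB against NC, and was called there without DN replicate 3, without DN replicate 4, with a replicate block, by DESeq2 and when only the 2 groups were fitted. Slc26a6, an oxalate and chloride exchanger of the brush border, had 3.27 to 5.46 CPM in DN+NaB and 2.31 to 5.90 CPM in DN, against 2.14 to 2.77 CPM in NC (0.83 ± 0.28, adjusted p = 0.0617 in DN+NaB against NC), and Slc26a11 13.8 to 16.4 CPM in DN+NaB and 8.86 to 15.5 CPM in DN, against 10.5 to 14.3 CPM in NC. Slc26a7, an exchanger of type A cells, stood at 0.340 to 0.856 CPM in DN+NaB and 0.348 to 1.39 CPM in DN, against 0.913 to 1.07 CPM in NC. Slc26a10 overlaps B4galnt1 in 16.6% of its 50-base words and was not called.

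Slc4a4, the sodium-bicarbonate cotransporter by which proximal tubule cells return bicarbonate to the blood, was the most abundant member in CPM and also per kilobase of exon, at 238 CPM per kilobase in DN+NaB and 247 in DN, against 198 in NC. Its levels were 2088, 2505, 2873 and 2294 CPM in DN+NaB and 2729, 2809, 2369 and 2218 CPM in DN, against 1808, 1978, 1984 and 2341 CPM in NC, and all groups overlapped. The log2 fold change was 0.32 ± 0.13, adjusted p = 0.171 in DN against NC, -0.05 ± 0.13, adjusted p = 0.911 in DN+NaB against DN and 0.27 ± 0.13, adjusted p = 0.193 in DN+NaB against NC.

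The other sodium-coupled Slc4 members were low and none was called in the fit of all libraries. Slc4a7 had 7.25, 7.52, 10.8 and 9.40 CPM in DN+NaB and 12.9, 13.3, 7.45 and 29.1 CPM in DN, against 10.8, 11.9, 14.8 and 20.0 CPM in NC, with DN replicate 4 far above the other DN libraries. Its log2 fold change of -0.84 ± 0.34, adjusted p = 0.446 in DN+NaB against DN was the largest fall of any member in that comparison. Slc4a8, a sodium-driven chloride-bicarbonate exchanger, had -0.43 ± 0.15, adjusted p = 0.068 in DN+NaB against NC; this fall was called in 6 alternatives, with library size only (-0.54, adjusted p = 0.0212), with at least 1 CPM in 4 libraries, when only the 2 groups were fitted, and on leaving out replicate 4 of NC, replicate 1 of DN or replicate 4 of DN (-0.55 to -0.43, adjusted p = 0.0247 to 0.0449). Slc4a5 and Slc4a11 were not called either. Among the chloride-bicarbonate exchangers, Slc4a2, a form found in most cells, had 126, 125, 119 and 119 CPM in DN+NaB and 103, 125, 132 and 109 CPM in DN, against 125, 115, 121 and 81.2 CPM in NC and log2 fold changes of 0.06 to 0.14 in the 3 comparisons; it shares 12.0% of its 50-base words with Fastk. Slc4a3 had 7.52 to 9.31 CPM in DN+NaB and 6.44 to 7.71 CPM in DN, against 6.33 to 8.19 CPM in NC. Slc4a1ap, in the set by its symbol alone, is an adaptor protein and no transporter, and its log2 fold change was 0.07 ± 0.12, adjusted p = 0.816 in DN against NC, 0.09 ± 0.12, adjusted p = 0.825 in DN+NaB against DN and 0.16 ± 0.12, adjusted p = 0.417 in DN+NaB against NC.

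Of 16 carbonic anhydrase genes 13 were tested, of which 2 rose in DN against NC, beside 3.82% of all genes, and 3 rose in DN+NaB against NC, beside 6.62%; 0 fell, beside 4.42% and 8.94% of all genes. Car5b, a mitochondrial carbonic anhydrase, had 173, 191, 163 and 184 CPM in DN+NaB and 137, 145, 188 and 145 CPM in DN, against 87.5, 103, 104 and 117 CPM in NC. Every DN+NaB and DN library lay above every NC library. It rose in DN against NC (0.58 ± 0.12, adjusted p = 0.00896) and in DN+NaB against NC (0.79 ± 0.12, adjusted p = 7.22e-04), and both calls held in all 21 alternatives. In DN+NaB against DN it was 0.21 ± 0.12, adjusted p = 0.608. The other mitochondrial form, Car5a, had 4.80, 3.91, 4.46 and 2.33 CPM in DN+NaB and 2.54, 2.57, 3.31 and 2.60 CPM in DN, against 2.74, 3.65, 2.58 and 3.36 CPM in NC and was not called, at 0.49 ± 0.23, adjusted p = 0.508 in DN+NaB against DN. Per kilobase of exon Car5b stood at 51.7 CPM in DN+NaB and 44.7 CPM in DN, against 30.0 CPM in NC, and Car5a at 3.10 CPM in DN+NaB and 2.21 CPM in DN, against 2.47 CPM in NC.

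Car9, a cell surface carbonic anhydrase known as a target of hypoxia-inducible factors, had 27.4, 19.8, 28.1 and 21.3 CPM in DN+NaB and 54.9, 27.5, 43.6 and 18.7 CPM in DN, against 16.2, 14.1, 18.8 and 18.8 CPM in NC. The DN libraries spread widely, with replicate 1 the highest and replicate 4 just below the highest NC libraries. Car9 rose in DN against NC (1.09 ± 0.27, adjusted p = 0.0229), the largest rise of any member. The call was lost without NC replicate 1 (1.06, adjusted p = 0.0695), NC replicate 2 (1.003, 0.0731), DN replicate 1 (0.82, 0.0559) or DN replicate 3 (0.99, 0.0596). It held without DN replicate 4, at 1.29 (adjusted p = 0.00177). In DN+NaB against DN it was -0.58 ± 0.27, adjusted p = 0.499 with overlapping groups, and in DN+NaB against NC 0.51 ± 0.27, adjusted p = 0.218 without overlap.

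The Car9 promoter is shown because the gene had this rise and is a known hypoxia target. The hypoxia response core ACGTG or GCGTG, on either strand, occurs in 43.8% of all promoters and in 26 of the 57 member promoters, and the first form lies within every CACGTG. In the Car9 promoter (RefSeq, GRCm38.p6, chr4:43506776-43507075, plus strand) there was 1 match, in capitals, read as ACGTG on the other strand.
Car9 promoter: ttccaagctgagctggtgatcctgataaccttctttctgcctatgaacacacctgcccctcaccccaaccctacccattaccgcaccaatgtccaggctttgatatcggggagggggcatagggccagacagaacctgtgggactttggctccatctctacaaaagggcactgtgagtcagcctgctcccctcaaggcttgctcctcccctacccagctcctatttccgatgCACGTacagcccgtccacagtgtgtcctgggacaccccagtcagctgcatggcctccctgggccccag
This match, too, describes the letters only.

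Car12, a carbonic anhydrase of the blood side of tubule cells, was the most abundant carbonic anhydrase in CPM. It had 689, 831, 741 and 757 CPM in DN+NaB and 708, 777, 658 and 468 CPM in DN, against 450.4, 508, 458 and 502 CPM in NC. DN+NaB did not overlap NC, and in DN 3 libraries lay above NC while replicate 4 lay within the NC range. It rose in DN+NaB against NC (0.65 ± 0.14, adjusted p = 0.00571), a call kept in all 21 alternatives. In DN against NC it was 0.44 ± 0.14, adjusted p = 0.065, and it was called there without DN replicate 4 and by DESeq2.

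Car2, the main cytosolic carbonic anhydrase of the tubule and of intercalated cells, had 324, 278, 283 and 234 CPM in DN+NaB and 235, 248, 265 and 176 CPM in DN, against 233, 195, 210.1 and 169.9 CPM in NC. Each DN+NaB library lay above each NC library, the lowest at 234 CPM against 233 CPM. It rose in DN+NaB against NC (0.47 ± 0.14, adjusted p = 0.0398). This call was lost without NC replicates 2, 3 or 4, DN replicate 1 or DN+NaB replicates 1, 2 or 3 (0.38 to 0.49, adjusted p = 0.0513 to 0.111) and with library size scaling alone (0.36, 0.0596). Its log2 fold change was 0.19 ± 0.14, adjusted p = 0.48 in DN against NC and 0.28 ± 0.14, adjusted p = 0.565 in DN+NaB against DN.

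Car4, anchored in the outer membrane of proximal tubule cells, had 135, 178, 141 and 100.1 CPM in DN+NaB and 78.3, 148, 145 and 77.0 CPM in DN, against 143, 159, 168 and 149 CPM in NC. In DN, replicates 1 and 4 held about the same low level and replicates 2 and 3 stood close to NC, so the group was split. Car4 was not called, with -0.47 ± 0.22, adjusted p = 0.244 in DN against NC, 0.31 ± 0.22, adjusted p = 0.677 in DN+NaB against DN and -0.16 ± 0.22, adjusted p = 0.671 in DN+NaB against NC. Car14, also a surface form of the proximal tubule, had 144 to 267 CPM in DN+NaB and 116 to 279 CPM in DN, against 179 to 208 CPM in NC and was not called; it shares 15.7% of its 50-base words with Aph1a. The low cytosolic forms Car3, Car7 and Car13 and the surface form Car15, which shares 58.3% of its words with Gm20518, were not called either.

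**Figure D5:**
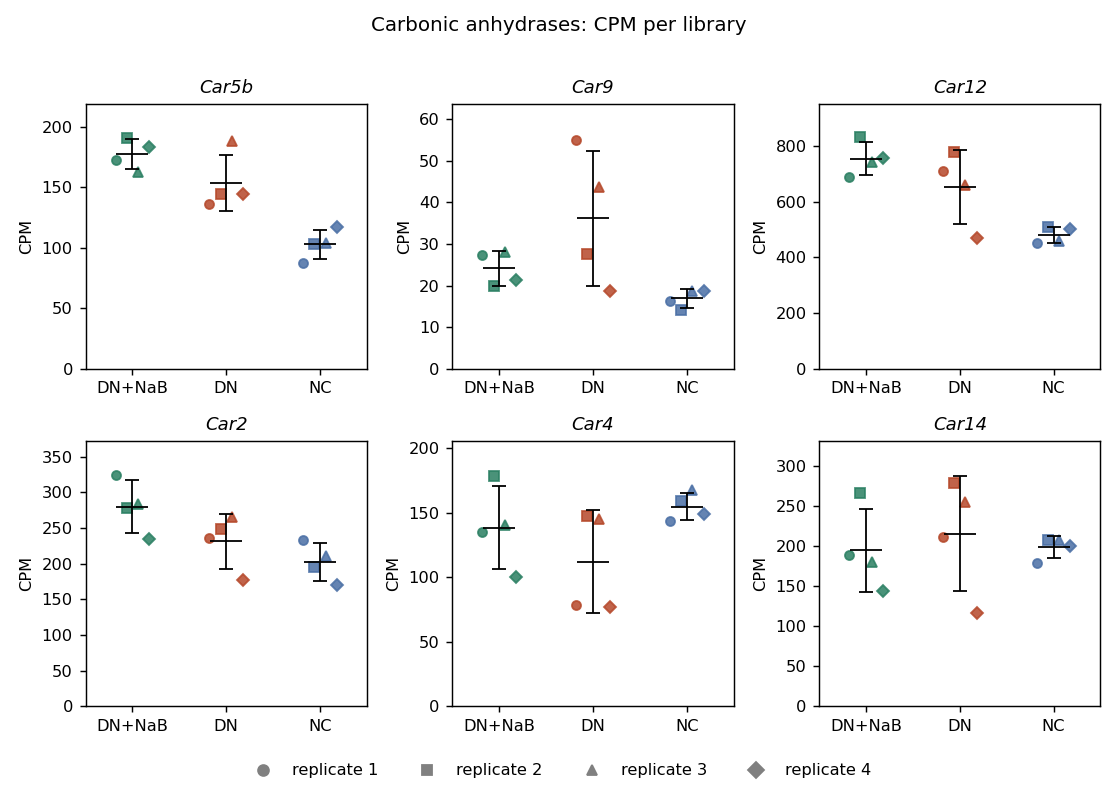
Levels of 6 carbonic anhydrases in CPM (y axis, from 0) in each library of DN+NaB, DN and NC (x axis); points are libraries, marked by replicate, with the mean and 1 SD as lines (n = 4). Car5b is above all NC libraries in every DN+NaB and DN library, Car9 spreads from 18.7 to 54.9 CPM in DN, and Car4 in DN falls into 2 low and 2 high libraries.

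The carbonic anhydrase-related genes Car8 and Car11 encode proteins without enzyme activity. Car8 had 3.15, 1.79, 3.01 and 2.25 CPM in DN+NaB and 2.95, 3.34, 2.69 and 1.57 CPM in DN, against 4.29, 4.43, 3.58 and 5.01 CPM in NC, and all DN+NaB and DN libraries were below all NC libraries. It was not called, at -0.71 ± 0.25, adjusted p = 0.102 in DN against NC and -0.76 ± 0.25, adjusted p = 0.0539 in DN+NaB against NC, and -0.05 ± 0.25, adjusted p = 0.963 in DN+NaB against DN. DESeq2 called the fall in DN+NaB (-0.76, adjusted p = 0.0166) and in DN (-0.71, adjusted p = 0.0428). In DN+NaB against NC it was also called with library size only (-0.88, 0.0287), with at least 1 CPM in 4 libraries (-0.80, 0.0407), when only the 2 groups were fitted (-0.76, 0.025) and without DN replicate 4 (-0.78, 0.0169). Car11 stood at 1.33 to 1.89 CPM in DN+NaB and 1.50 to 2.26 CPM in DN, against 1.58 to 2.85 CPM in NC.

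The 11 members below the filter on counts were Atp6ap1l, Atp6v1e2, Atp6v1g2, Car1, Car6, Car10, Slc4a10, Slc26a3, Slc26a5, Slc26a8 and Slc26a9. Atp6v1g2, Car6 and Slc26a5 had 0 counts in every library, which allows up to 3 counts in each. The highest count of the others was 16, for Slc26a8. Car1, the abundant carbonic anhydrase of red cells, had 0 to 1 count per library.

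Among other genes of acid handling, sodium-proton exchangers were read from a list of their own, in which 0 were called in DN+NaB against DN. Slc9a8, an exchanger of the Golgi and of the brush border, had 81.3, 112, 100.2 and 87.8 CPM in DN+NaB and 99.4, 79.1, 91.7 and 62.8 CPM in DN, against 231, 243, 234 and 179 CPM in NC and fell in both diseased groups against NC (-1.22 ± 0.15, adjusted p = 1.58e-04 in DN+NaB and -1.41 ± 0.15, adjusted p = 6.45e-05 in DN). The scaffold gene Slc9a3r2 fell in DN+NaB against NC (-0.60 ± 0.17, adjusted p = 0.0255). Slc9a3, the main exchanger of the proximal tubule brush border, was not called.

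Of 11 tested genes of ammonia production and transport, 0 were called in DN against NC and in DN+NaB against DN. In DN+NaB against NC 3 rose, beside 6.62% of all genes, and 1 fell, beside 8.94%. Glud1, glutamate dehydrogenase, had 592, 574, 507 and 527 CPM in DN+NaB and 580.5, 519, 540.0 and 482 CPM in DN, against 440.3, 404, 428 and 415 CPM in NC (0.38 ± 0.10, adjusted p = 0.0159). Slc38a3, a glutamine carrier of the proximal tubule that acidosis is known to raise, had 156, 109, 129 and 86.5 CPM in DN+NaB and 118, 84.6, 90.5 and 70.4 CPM in DN, against 78.3, 74.0, 67.3 and 65.2 CPM in NC (0.76 ± 0.18, adjusted p = 0.0106). Slc7a8, a basolateral amino acid exchanger, had 711, 827, 696 and 692 CPM in DN+NaB and 357, 583, 535 and 275 CPM in DN, against 295, 366, 344 and 335 CPM in NC (1.13 ± 0.19, adjusted p = 0.00146). Slc12a1, the cotransporter of the thick ascending limb that also takes up ammonium, fell (-0.96 ± 0.21, adjusted p = 0.0068).

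Of the tested proton-potassium pump genes Atp4a and Atp12a, Atp4a alone was called. It rose in DN+NaB against NC (0.65 ± 0.16, adjusted p = 0.0113), beside 6.62% of all genes. Its levels were 82.5 to 111 CPM in DN+NaB and 61.6 to 98.6 CPM in DN, against 53.0 to 72.1 CPM in NC. Atp4b, the gene of the other subunit of this pump, had 0 counts in every library. Genes of acid sensing were called in both directions. The proton-sensing receptor gene Gpr65 fell in both diseased groups but stood at only 0.232 to 0.379 CPM in DN+NaB and 0.197 to 0.597 CPM in DN, against 0.678 to 1.50 CPM in NC (-1.56 ± 0.41, adjusted p = 0.0206 in DN+NaB and -1.45 ± 0.41, adjusted p = 0.0445 in DN). Gpr65 is known from leukocytes, and the sum of 7 T cell markers was 1.51 to 2.56 CPM in DN+NaB and 3.48 to 11.7 CPM in DN, against 12.6 to 20.4 CPM in NC; its part in the fall of Gpr65 was not tested. Oxgr1, given with the intercalated cell markers, is also in this list. Ptk2b, a kinase that acid activates in proximal tubule cells, rose in both diseased groups (0.58 ± 0.14, adjusted p = 0.0105 in DN+NaB and 0.58 ± 0.14, adjusted p = 0.0168 in DN). Insr, the insulin receptor and closest relative of Insrr, rose in DN against NC (0.40 ± 0.10, adjusted p = 0.0199), with 253, 283, 266 and 261 CPM in DN+NaB and 339, 339, 344 and 378 CPM in DN, against 250.5, 258, 252 and 304 CPM in NC, so the related receptor genes moved in opposite directions in DN.

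Of 12 assembly factors and regulators of the pump, 0 were called in any comparison, and Tcirg1, the gene of the pump's a3 form, which this list holds, had 22.7 to 27.2 CPM in DN+NaB and 26.7 to 34.4 CPM in DN, against 24.6 to 26.4 CPM in NC (0.29 ± 0.11, adjusted p = 0.128 in DN against NC). Of 10 chloride channel genes 2 fell in DN+NaB against NC, beside 8.94% of all genes, and 0 were called in the other comparisons. They were Clcn3 (-0.80 ± 0.11, adjusted p = 3.25e-04) and Clcn4 (-0.35 ± 0.11, adjusted p = 0.0417), which both encode chloride-proton exchangers of endosomes. Of 14 lysosomal genes 1 rose in DN against NC, beside 3.82% of all genes, and 4 rose in DN+NaB against NC, beside 6.62%; 0 fell, beside 4.42% and 8.94%. These were Ctsb, a lysosomal protease (0.52 ± 0.12, adjusted p = 0.00931 in DN+NaB and 0.45 ± 0.12, adjusted p = 0.0325 in DN), and in DN+NaB the membrane protein gene Lamp1 (0.45 ± 0.13, adjusted p = 0.0266) and the glycosidases Hexa (0.46 ± 0.14, adjusted p = 0.0394) and Neu1 (0.60 ± 0.14, adjusted p = 0.012). Of 5 genes named for intercalated cell transcription, Cp rose in both diseased groups (1.19 ± 0.32, adjusted p = 0.0267 in DN+NaB and 1.63 ± 0.33, adjusted p = 0.00866 in DN); Cp encodes the plasma copper protein ceruloplasmin and is no transcription factor. Grhl2, a factor of epithelial differentiation, fell in DN+NaB against NC (-0.61 ± 0.19, adjusted p = 0.0447).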

How the data were processed

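The authors deposited whole-number counts per gene symbol for 12 libraries in 1 table, with no normalization. Reads were aligned with HISAT2 2.0.4, per the submitters' processing notes. The sources used here do not give the program that counted them, how it treated strand and reads that map to several places, or the genome build and annotation behind it, so overlapping genes and near-identical copies are uncertain. Groups came from titles and labels. The members, roles and gene lists were chosen with earlier results of these data known.

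Genes were filtered with filterByExpr by group (17530 left) and scaled with TMM. All 12 libraries entered 1 edgeR 4.0.16 quasi-likelihood fit (R 4.3.3, robust, group only; two-sided tests, Benjamini-Hochberg over all tested genes, threshold 0.05), whose standard errors are given after ± beside log2 fold changes. Library totals had a median of 63588713 counts, and the median standard error was 0.166 in each comparison. On simulated counts of 17270 genes for DN against NC, 61% of genes changed 2-fold and 16% of genes changed 1.5-fold were recovered, with 1 false call. The allowance of 3 counts for a gene at 0 covers counting error only.

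Levels per kilobase used the exons of basic protein-coding transcripts in GENCODE M21 (GRCm38), which may not be the authors' annotation; words of 50 bases shared between its transcripts marked uncertain genes. Named with values were all called members, 10 genes fixed by name, the most abundant member and the member with the smallest p of each role, the tested pseudogene copy of a member, and called genes of the other lists, a few of which are not reported here; other members given with values, Slc4a7, Slc4a8, Slc26a1, Slc26a6 and Atp6v1e1 among them, were chosen after their values were seen. The 21 alternatives were other scalings (RLE factors with edgeR, library size only), other filters on low counts, non-robust estimation, a replicate block, DESeq2 1.42.0, fits of only the 2 groups compared, copies added to parents, and 12 fits without 1 library each.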

Additional observations from a re-analysis of the deposited data

Results flagged for a closer look

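In 12 of 162 groups of 4 libraries, 1 library lay far from the other 3 by Dixon's criterion, where chance gives about 1 in 20. DN replicate 3 was the library apart for 5 genes: it held 326 CPM of the catalytic subunit gene Atp6v1a, against 397 to 408 CPM in the other DN libraries, and it was the highest for the mitochondrial anhydrases Car5b, at 188 CPM against 137 to 145 CPM, and Car5a, at 3.31 CPM against 2.54 to 2.60 CPM. It was also the highest for the cytosolic Car7, at 10.6 CPM against 6.65 to 7.22 CPM, and for Car11, at 2.26 CPM against 1.50 to 1.54 CPM. The rise of Car5b in DN held without this library.

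DN replicate 1 was apart for 2 genes, with 12.7 CPM of the E subunit gene Atp6v1e1, against 2.71 to 3.35 CPM in the other DN libraries, and 28.9 CPM of the bicarbonate transporter Slc4a8, against 20.0 to 21.4 CPM. DN+NaB replicate 3 was low for Slc4a8, at 17.0 CPM against 20.9 to 21.4 CPM in the other DN+NaB libraries, and for the C subunit gene Atp6v1c2, at 25.5 CPM against 30.1 to 30.9 CPM. In NC, Atp6v1e1 was high in replicate 3, at 7.58 CPM against 1.65 to 2.35 CPM, the V0 subunit gene Atp6v0b was low in replicate 4, at 152 CPM against 197 to 204 CPM, and Slc26a7 was low in replicate 2, at 0.913 CPM against 1.05 to 1.07 CPM.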

How the results depend on the processing

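Of the 20 calls of a member in a comparison, 7 held in all 21 alternatives: Insrr, Slc26a4 and Car5b in DN against NC, and Car5b, Car12, Atp6v1b2 and Atp6v1g1 in DN+NaB against NC. With copies added to their parents, Atp6v0c in DN+NaB against NC turned to 0.24. The other reversals were of genes not called and close to 0. In DN against NC, Slc4a1ap was -0.030 with library size only and -0.0094 to 0.129 without 1 library, below 0 without NC replicate 1. The DN+NaB against DN value of Car8 was -0.231 to 0.0884 without 1 library, above 0 without DN replicate 1, DN replicate 2, DN+NaB replicate 2 or DN+NaB replicate 4, and that of Slc4a4 was -0.140 to 0.0154, above 0 without DN replicate 2 or DN+NaB replicate 1. For DN+NaB against NC, Slc4a1 was -0.068 with library size only and -0.108 to 0.131 without 1 library, below 0 without NC replicate 4 or DN+NaB replicate 1. Library size only moved the median of all genes to -0.12 in DN+NaB against NC. The cause of these differences was not tested, apart from the copies.

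Beside the genes given with such calls in the report, members called in DN+NaB against NC under an alternative alone were Atp6v1b1 and Atp6v1d (library size only), Atp6ap1 (replicate block), Slc26a10 and Car9 (2 groups only), Slc4a7 (2 groups only or without DN replicate 4), Slc26a6 (these or without DN replicate 3, or DESeq2) and Atp6v1f (replicate block, 2 groups only, without DN replicate 3 or 4), and in DN against NC Atp6v1a (library size only). Fits of only the 2 groups compared called 2 members higher in DN against NC, and 11 higher and 7 lower in DN+NaB against NC; they called 1783 of all genes higher in DN+NaB against NC and 0 in either direction in DN+NaB against DN. DESeq2 called 1006 of all genes higher in DN against NC and, in DN+NaB against DN, 80 higher and 174 lower, with 1 member. Members called lower in DN+NaB against NC numbered 7 with library size only and 5 with at least 1 CPM in 4 libraries. The counts of all genes called lower there are not given for these fits. For DN+NaB against DN, where 2 of all genes were higher and 2 lower, the counts were 8 and 14 with RLE factors, 8 and 18 with library size only, 9 and 18 with no filter, 7 and 10 with at least 1 CPM in 4 libraries, and 7 and 10 with copies added.

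Without 1 library in turn, members called in DN against NC numbered 1 to 6 higher and 3 to 6 lower, and 409 to 921 and 533 to 1055 of all genes. The 5 higher members became 1 without NC replicate 1, 2 without DN replicate 1, DN replicate 3 or NC replicate 2, and 3 without NC replicate 3 or DN replicate 2; the 5 lower became 3 without NC replicate 1. The DN+NaB against DN counts were 0 to 0 for members, and 0 to 30 higher and 0 to 37 lower of all genes. Those in DN+NaB against NC numbered 4 to 10 higher and 1 to 6 lower, and 790 to 1570 and 1043 to 2146 of all genes. The 7 higher became 4 without NC replicate 4, DN+NaB replicate 2 or DN+NaB replicate 3; the 3 lower became 1 without DN+NaB replicate 2 or DN+NaB replicate 4 and 6 without DN replicate 4.

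The labels do not say that replicate numbers pair libraries, and not every pair deviated together: of 12 pairs with the same number, 4 correlated above 0.1 (range -0.168 to 0.208). The pairs of replicates 4 were at 0.208, 0.203 and 0.0973. Pairs with unlike numbers ranged from -0.237 (DN+NaB replicate 1 with NC replicate 4) to 0.278 (DN+NaB replicate 1 with DN replicate 3). Whether the replicates 4 share a factor was not tested. With a replicate block, 4 members were higher and 5 lower in DN against NC, 0 were called in DN+NaB against DN (4 of all genes higher), and 10 were higher and 3 lower in DN+NaB against NC. The counts of all genes against NC in this fit are not given.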
